A study of Mus musculus with 12 samples.

Results

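The libraries described here are the 6 unsorted ORFtag libraries of mouse embryonic stem cells, which record where the tagging cassette had landed before any sort on the reporter. Members were chosen by label: the 2 unsorted libraries from the post-transcriptional gene regulator (PTGR) screen, whose cassette carried the λN tag, set against the 2 unsorted activator and 2 unsorted repressor libraries, whose cassette carried the TetR tag. They are 6 of the 12 libraries of the series and hold 1384377 of its 1636404 listed insertion positions, a position being a chromosome, coordinate and strand counted once per library. All cells were diploid derivatives of the AN3-12 line with a reporter built in, and all had been selected with G418 for the NeoR gene of the cassette. The activator line carried TetO sites upstream of a MYLPF minimal promoter driving PuroR-IRES-GFP, placed by recombinase exchange at a chromosome 15 locus, and was clonal. The repressor line carried its TetO and GFP reporter at an exchange locus on the same chromosome. The PTGR line carried PuroR-IRES-GFP followed by boxB sites under a PGK promoter, integrated by the Tol2 transposase, together with a retroviral CreERT2 vector, and came from single cell clones. Per the methods, a larger share of cells was transduced in both PTGR replicates than in any other. The tag, the reporter line and the transduction rate therefore change together between PTGR and the other libraries and cannot be told apart. The paper also describes different laboratories without saying which made which libraries, so laboratory may change with them. The labels number the libraries as replicates, and the paper describes biological replicates from 6 independent transductions. The p-values measure the spread between these libraries, which may be partly technical.

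The cassette is a retroviral gene trap turned into a protein tag. Its PGK promoter drives NeoR and, behind an internal ribosome entry site, a tag that ends in a splice donor, so that transcription running into a downstream gene can splice the tag onto the next exon that has an acceptor. λN is an RNA-binding peptide that recognises boxB hairpins, and TetR is a bacterial repressor that binds TetO DNA. Gammaretroviral vectors of this kind are known to integrate preferentially near active promoters and enhancers, and retroviral integrases act on both DNA strands, which leaves a weakly palindromic base preference around the insertion.

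The reads behind the lists came from inverse PCR, and the precision of every value below is set by the number of distinct positions. The PTGR libraries held 314239 and 72496 positions, the activator libraries 238023 and 278946, and the repressor libraries 237410 and 243263. PTGR replicate 2 was thus the smallest of the 6, and PTGR replicate 1 the largest. Within 200 kb upstream of an exon the authors assigned, the counted insertions were 233799, 54088, 175406, 207613, 174276 and 176944 in the same order. Between 5.10% and 8.16% of the positions of a library were also listed in another of the 6. The repressor replicates shared 9444 positions with each other, more than any other pair. Intervals and floors given here cover counting error only, because amplified reads without molecular identifiers are not independent molecules. The samples are genomic DNA, so the stem cell label could not be checked against expressed markers.

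The bases around the insertions were alike in the 6 libraries and set the first picture of where the cassette goes. Numbering the listed base as 0 on the strand of the insertion, T stood at offset -6 in 50.8% to 52.2% of positions, against 29.2% of the genome, and A stood at offset 1 in 55.2% to 57.1%. The inner pair was enriched less, with T at -3 in 33.9% to 35.8% and A at -2 in 40.2% to 41.5%. T at -4 and A at -1 were depleted, at 17.8% to 18.2% and 9.13% to 10.9%. Each enriched or depleted T was mirrored by an A on the far side, in the same direction but not in equal size. The ranges of the λN and TetR libraries differed by at most a few percentage points. Both T at -6 and A at 1 were present at 25.8% and 26.5% of the PTGR positions and at 26.9% to 27.3% of the others, while the product of the 2 genome shares is 8.51%.

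Some positions recurred, and their sequences show that recurrence had more than 1 form. Of all distinct positions, 1296228 were listed in 1 library, 39278 in 2, 2726 in 3, 304 in 4, 35 in 5 and 4 in all 6. The following 30-base windows are from GRCm38, the assembly of which mm10 is the browser name, and are written 5′ to 3′ on the strand of the insertion, with capitals from offset -6 to offset 1. The first 3 are positions listed in 5 libraries, all but PTGR replicate 2, that hold the T and the A. They lay in the gene Jdp2, which encodes a transcription factor, upstream of Lmod1, and upstream of Arid2, which encodes a chromatin remodelling subunit.
Jdp2, chr12:85619981-85620010, plus strand: tcactctaaTGGTATAAtccttctgtcctc
Lmod1, chr1:135192236-135192265, plus strand: cagcagaggTCAGACAAcctcagaaacggg
Arid2, chr15:96286344-96286373, plus strand: cctccgggtTCGGTGCAccaaaccgaccaa
The next 3 were listed in all 6 libraries and lack the T or the A. They lay in the promoter of Pgk1, upstream of the olfactory receptor gene Olfr1512, and in an intergenic stretch of chromosome 6 whose nearest downstream exon, of Dusp11, was 425182 bp away and therefore not counted.
Pgk1, chrX:106186883-106186912, plus strand: cgcgccaccTTCTACTCctcccctagtcag
Olfr1512, chr14:52381262-52381291, minus strand: taagagcacTGACTGCTcttctagataggt
chromosome 6, chr6:86384460-86384489, minus strand: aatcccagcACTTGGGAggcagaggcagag
Among the 39 positions in at least 5 libraries, 12 held both letters, 14 were missing from PTGR replicate 2 alone, and 4 lay in the Pgk1 promoter. The share of positions with both letters was 25.9% among those listed once, 37.9% among those in 2 libraries, 45.6% in 3, 49.7% in 4, and 30.8% in 5 or 6. It was therefore highest at an intermediate number of libraries.

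Among windows of 300 bp before gene starts, that of Pgk1 held the most insertions running the same way as the gene. Pgk1 encodes a glycolytic kinase, and its promoter is also the promoter of the cassette. In the 300 bp before its start the libraries listed 27 and 40 (PTGR), 39 and 47 (activator) and 34 and 47 (repressor) positions running the same way as the gene. Only 4 ran the other way, so the 234 same-way positions were nearly all of the positions in that window. Pgk1 ranked 1 of 21938 protein-coding genes by this count, for which the median was 0 and the 99th percentile 4. The next gene, Zfp532, had 29 in each orientation. Scaled to 10000 positions the counts were 0.859 and 5.52 in the PTGR libraries and between 1.43 and 1.93 in the others, so the 2 PTGR replicates lay on opposite sides of the other 4. The T and A letters were both present at 1.71% of the 234 (95% Wilson interval 0.667 to 4.31), and neither was present at 55.6%, against 17.9% to 19.8% in whole libraries and a product of genome shares of 50.2%. The part played by the copy of this promoter inside the cassette was not tested. The segment of the Hprt intron that the cassette also carries held 1, 0, 2, 7, 2 and 0 positions.

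Without selection the cassette reached most genes that it could tag. At least 1 sense insertion, meaning one whose cassette points toward the gene, was counted for 18268 of 20409 genes (89.5%), and 9116 genes were tagged in each of the 6 libraries. The PTGR libraries tagged 15609 and 10972 genes, the activator libraries 14708 and 15105, and the repressor libraries 14538 and 14645. PTGR replicate 2 was lowest and PTGR replicate 1 highest, which is the order of their depths. At an equal depth of 54088 insertions the expected numbers were 11126 and 10972 for PTGR, and 10871, 10768, 10799 and 10876 for the others. At that depth both PTGR libraries lay above the other 4, by 221 genes on average (exact permutation test over libraries, two-sided, p = 0.133, the smallest that 15 splits allow). The difference was 144 genes without PTGR replicate 1 and 297 without PTGR replicate 2.

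**Figure D1:**
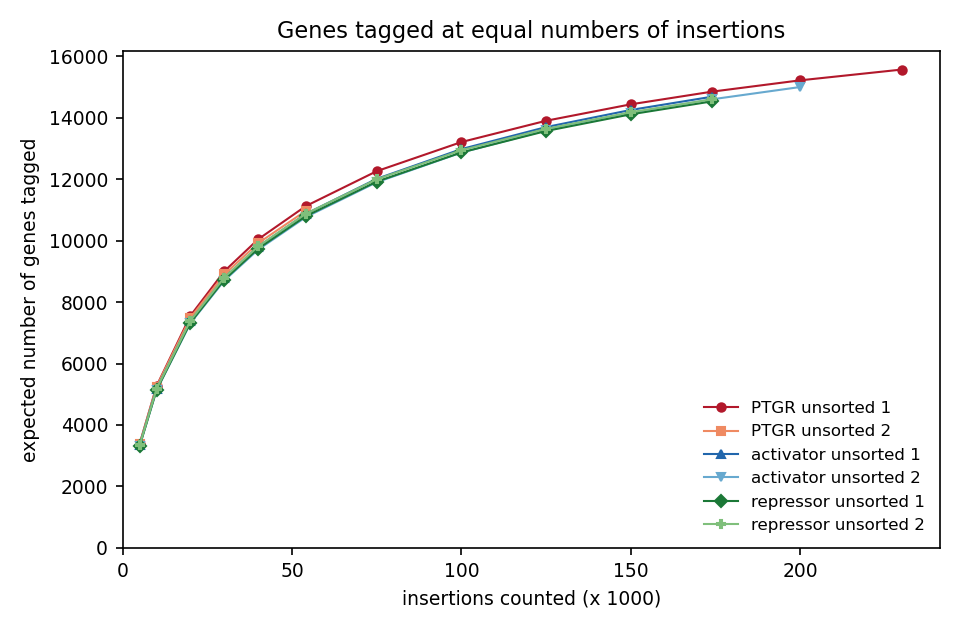
Expected number of genes with at least 1 sense insertion (vertical axis) against the number of insertions counted (horizontal axis), for each of the 6 unsorted libraries, computed without random draws. The curves nearly coincide, with the PTGR libraries slightly above the others at equal depth, for example 11126 and 10972 genes against 10768 to 10876 at 54088 insertions.

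Pooled, the PTGR libraries tagged 16076 genes with 287887 insertions and the DNA-tethering libraries 17799 genes with 734239. Reduced to the PTGR depth, the DNA-tethering pool was expected to tag 16002 genes. Both pools tagged 15607 genes, 469 were tagged by PTGR alone, and 2192 by the DNA-tethering libraries alone. These exclusive genes were thinly tagged. Of the 469, 347 had 1 insertion, and the highest was 1700024G13Rik with 9, all in PTGR replicate 1. Of the 2192, 1959 had 5 insertions or fewer, and the highest was Acadl, a mitochondrial acyl-CoA dehydrogenase, with 30.

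None of the 15 most tagged genes passed the test between PTGR and DNA-tethering libraries (edgeR quasi-likelihood test, adjusted p from 0.32 to 0.99). Cipc, a regulator of the circadian clock, came first with 12.2 ± 0.51 sense insertions per 10000 of the library (SD, n = 6), with 12.70 and 12.94 in the PTGR libraries and 11.80, 11.70, 11.99 and 11.93 in the others. The 2 PTGR values were the highest, but by less than 1 insertion per 10000 from the next. Mllt10, a partner of the histone methyltransferase Dot1l, followed with 11.7 ± 0.92, and then Angel1 with 10.8 ± 0.70. Angel1 and Cipc point away from each other on chromosome 12, with starts at 86726460 and 86947043, so they are not independent regions. The next were Lmod1, Zfp516, Zmynd8, the corepressor Ncor1, Vwf, Pitpnc1, the deubiquitinase Usp9x, Etl4, Cdk18, Bicral, Pigl and Rnf220, with means from 9.72 down to 8.08 per 10000. Between activator and repressor libraries 2 of the 15 passed, Bicral and Cdk18. Cdk18, a cyclin-dependent kinase, was at 9.69 and 11.3 in activator against 7.06 and 6.61 in repressor libraries (log2 0.63, edgeR adjusted p = 0.035). Bicral, a subunit of a SWI/SNF-type remodelling complex, was at 14.6 in activator replicate 2 and between 5.88 and 7.70 in the other 5, so its mean rests on that library (log2 0.85 between activator and repressor, edgeR adjusted p = 0.00054). Of its insertions, 33 of 135 in activator replicate 1 and 180 of 304 in activator replicate 2 were also listed in the sorted activator libraries. Bicral stood there at 200 and 730 per 10000, and the part that shared positions play was not tested. Pigl ran from 4.99 in PTGR replicate 2 to 9.54 in PTGR replicate 1. It overlaps Ncor1 at their starts on opposite strands of chromosome 11, so these also are not independent regions. The 100 most tagged genes of a library held 6.87% and 6.90% of the PTGR insertions and 6.91% to 7.31% of the others.

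Lists of genes with a known role differed widely in how densely they were hit. Density was taken as insertions of the 6 libraries per 100 kb of catchment. The catchment is the bases, on the strand of the gene, from which an insertion would be assigned to it. The density was 41.0 over all genes. The 15 measured pluripotency factors, which keep embryonic stem cells undifferentiated, had 194, with 783 at Pou5f1, 482 at Nanog and 536 at Tfcp2l1 but 29.0 at Klf4. Their median log2 difference between PTGR and DNA-tethering libraries was -0.31, against -0.04 over all tested genes. This was not particular to them, with -0.35 for the lineage transcription factors and -0.36 for vomeronasal type 2 receptor genes. Tumour suppressors and cell cycle inhibitors were at 0.08. In density, transcription cofactors had 118, lineage transcription factors 54.7, tumour suppressors and cell cycle inhibitors 73.9, and proto-oncogenes 79.9. Olfactory receptor genes had 9.65 and vomeronasal type 2 receptor genes 5.68. These densities are descriptions, since members of a list share chromatin domains and neighbours.

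The 2141 genes never tagged (10.5%) were mostly small targets or members of large receptor clusters. A count of 0 in 1022126 insertions allows a level of listed insertions of up to 0.0294 per 10000 for each. The authors removed reads with a mapping quality of 30 or less, so insertions in sequence present in several copies may be unlisted. Whether genes went untagged for that reason was not tested. Their median catchment was 26249 bp, against 93539 bp for tagged genes. When all genes were divided into 10 groups of equal number by catchment, the share never tagged fell from 29.7% in the group with the shortest to 21.2%, 17.8%, 10.8%, 7.37%, 5.26% and 3.10%. It was then 4.77% and 4.62%, and 0.197% in the group with the longest, so the fall was not even.

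**Figure D2:**
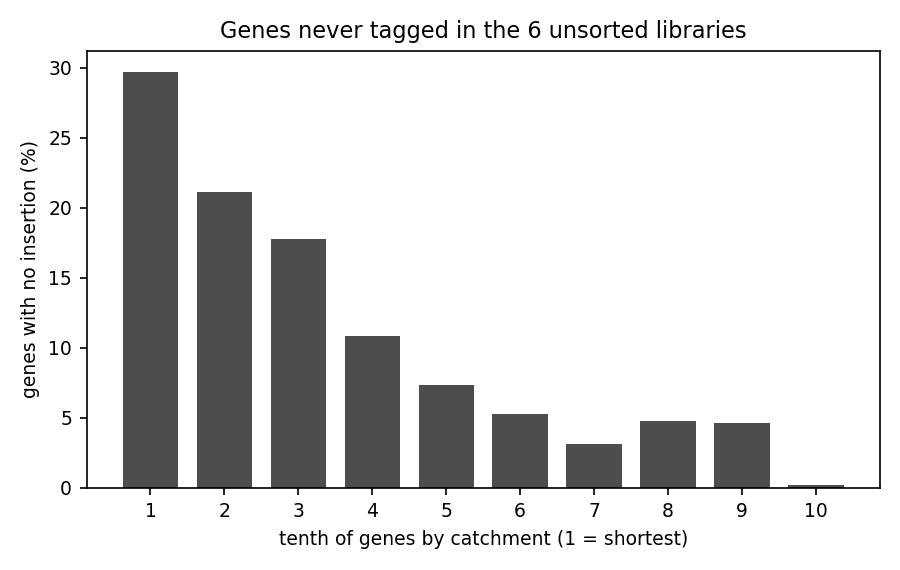
Share of genes with no sense insertion in any of the 6 unsorted libraries (vertical axis, percent) for 10 groups of equal number ordered by catchment (horizontal axis, 1 the shortest). The bars fall from 29.7% to 0.197%, with a small rise to 4.77% and 4.62% in groups 8 and 9.

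Olfactory receptors made up 534 of the never tagged genes, which is 52.0% of the 1026 in the table, and predicted genes with Gm names another 402, or 39.8% of 1010. Vomeronasal type 1 receptors had 38 of 139 never tagged, type 2 receptors 32 of 124, and beta defensins 13 of 42. The alpha defensins, antimicrobial peptides of the gut, had 23 of 28 (82.1%), the highest share of the families counted. The complex I subunits of the mitochondrial respiratory chain had 0 of 47 never tagged. Shares were also low for proteasome subunits, with 1 of 48, cytosolic ribosomal proteins, with 2 of 96, and numbered zinc finger proteins, with 15 of 393. On the Y chromosome 123 of 150 genes were never tagged, and the libraries listed only 18 to 107 positions there. Whether the cells carried a Y chromosome was not tested, so these genes may not have been open to tagging. A wide catchment did not always bring an insertion, and 301 of 9051 genes with at least 100 kb were never tagged. The 10 widest were Astn1, a neuronal adhesion protein, with 416139 bp, Dnah11, an axonemal dynein, the collagen gene Col4a3, St3gal1, Samd3, Nlrp4e, the proteoglycan gene Dcn, and the Y-linked Zfy2, Gm29554 and Gm21739. Reversed insertions, counted by turning the strand of each position, were also few there, with 9 at Dnah11, 4 at Astn1 and 0 at Dcn.

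The λN and TetR libraries placed their insertions slightly differently around genes. The share of positions within 1 kb of an annotated start site was 8.39% and 8.94% in the PTGR libraries, 7.19% and 7.51% in the activator libraries, and 7.24% and 7.31% in the repressor libraries. Both PTGR values lay above the other 4, by 1.35 percentage points (exact permutation test, p = 0.133, the smallest possible). Within 5 kb the shares were 23.8% and 24.2% against 21.7% to 22.6%, a difference of 1.94 points with the same exact p of 0.133. The median distance from a counted insertion to its exon was 30606 and 31768.5 bp in PTGR and 31912 to 32427 bp in the others. The share assigned to exon 2 (83.2% and 84.3% against 83.6% to 83.9%), the share pointing toward the gene (50.4% and 50.1% against 50.1% to 50.3%) and the GC content around the site (44.9% and 46.4% against 44.8% to 45.2%) overlapped between the groups. Of 34 such measures, 11 did not overlap, and no exact p over 2 against 4 libraries can fall below 0.133. The 95% Wilson interval of a library's share reached at most 0.312 percentage points to either side.

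By chromosome, the largest difference between screens in percentage points was on chromosome 8 and set the repressor libraries apart. It held 5.75% and 6.04% of the repressor positions, against 4.53% and 4.44% in the activator libraries and 4.55% and 4.72% in the PTGR libraries. The repressor mean was 1.29 times that of the other 4 libraries, whose values lay close together. The X chromosome was also higher in the repressor libraries, at 4.61% in both, against 4.16% and 4.15% (activator) and 4.21% and 3.75% (PTGR), a ratio of 1.13. The share of positions mapped to the Y chromosome, which were few, was higher in the activator libraries. It was 0.0420% and 0.0384% against 0.0232% to 0.0248% in the other 4, a wider ratio than that on chromosome 8. The repressor pair lay apart from the other 4 libraries on 8 of 21 chromosomes, and the PTGR pair lay apart from the other 4 on 6. Chromosome 2 was one of those 6, with 7.65% and 7.75% against 7.23% to 7.41%, and chromosome 5 another, with 6.50% and 6.62% against 6.03% to 6.21%.

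**Figure D3:**
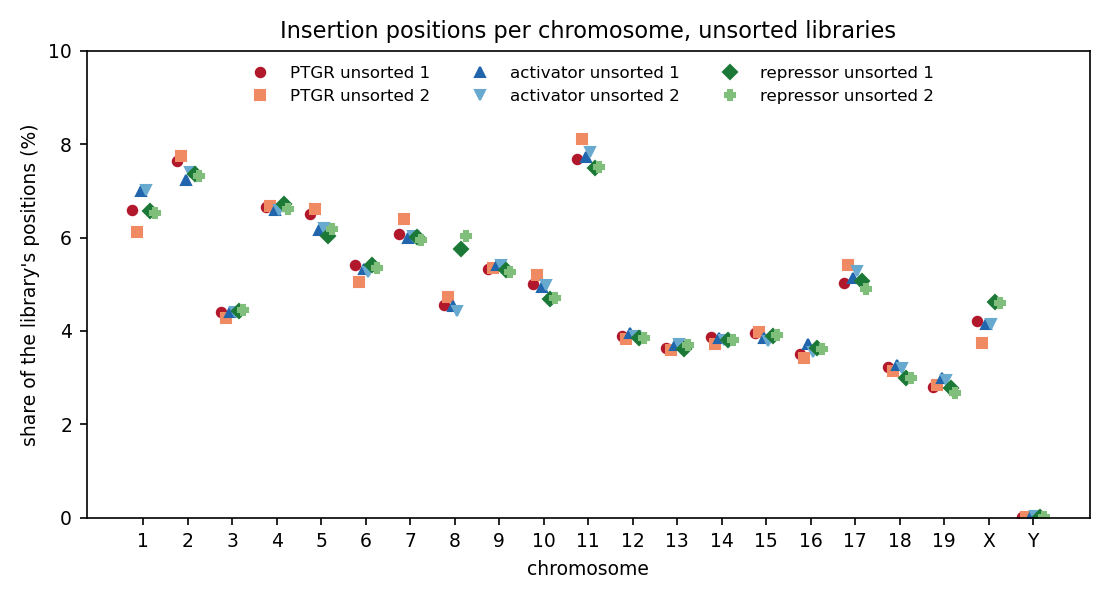
Share of a library's insertion positions on each chromosome (vertical axis, percent), with 1 point per unsorted library. On chromosome 8 the 2 repressor libraries stand at 5.75% and 6.04%, above the other 4 at 4.44% to 4.72%, while the PTGR libraries stand slightly apart on chromosomes 2 and 5.

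Gene by gene, few genes separated the PTGR libraries from the DNA-tethering libraries. Of 12033 genes with at least 10 insertions, 15 (0.125%) were higher in PTGR and 10 (0.0831%) were lower, 25 in all (0.208%), at a Benjamini-Hochberg adjusted p below 0.05 (edgeR quasi-likelihood test), and 1059 (8.80%) had an unadjusted p below 0.05. Scaled by library size alone, without TMM factors, 16 were higher and 4 lower, and Acadl, Ccdc112, Insig2, Cct8, Bach1 and Mre11a lost the call with folds of the same sign. Levels of the 2 groups did not overlap for 2374 genes (19.7%). The median log2 difference over all tested genes was -0.04. The count rests on PTGR replicate 1, without which no gene passed (830 at an unadjusted p below 0.05), and it was 9 without PTGR replicate 2, 9 without activator replicate 2 and 12 without repressor replicate 1. Levels below are sense insertions per 10000 counted insertions of the library.

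Among the 15 higher genes were several whose products act on messenger RNA. Smg9, a partner of the SMG1 kinase of nonsense-mediated decay, was at 2.05 and 2.40 in PTGR, 0.285 and 0.289 in activator, and 0.344 and 0.170 in repressor libraries. Both PTGR levels lay far above the other 4, a log2 difference of 2.88 (SE 0.41, edgeR adjusted p = 2.2e-06). Cnot9, which belongs to the CCR4-NOT complex that shortens poly(A) tails, was at 1.33 and 0.555 in PTGR against 0.114, 0.241, 0.172 and 0.170. Its groups did not overlap, and the log2 difference was 2.54 (SE 0.51, edgeR adjusted p = 0.0037). Cnot2, another subunit of that complex, was at 1.97 and 2.40 against 0.684, 0.482, 0.861 and 0.509, a log2 difference of 1.65 (SE 0.36, edgeR adjusted p = 0.012). Tnrc6b, a scaffold that links Argonaute proteins to deadenylation, was at 1.75 and 2.77 against 0.684, 0.385, 0.287 and 0.226. It rose by 2.28 on the log2 scale (SE 0.40, edgeR adjusted p = 0.00024). Of 30 listed genes of mRNA decay and microRNA silencing, 28 were tested, and Cnot2, Cnot9 and Tnrc6b were higher in PTGR while none was lower, against 0.125% and 0.0831% over all tested genes. The list was chosen with earlier results known, and the paper names these 3 genes as hits of the PTGR screen. The count is therefore not an independent test of the list. Without positions listed in the sorted libraries of the same screen, all 3 lost the call, with log2 differences of 0.88, 1.80 and 1.32. The list's median log2 difference was 0.08, against -0.04 over all tested genes.

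Also higher were Trim26, Trim13 and Trim25, which encode RING-type ubiquitin ligases. Trim26 was at 1.20 and 1.66 in PTGR against 0.228, 0.241, 0.172 and 0.452, a log2 difference of 2.18 (SE 0.46). Trim13 was at 2.22 and 0.740 against 0.285, 0.433, 0.516 and 0.509, a log2 difference of 1.94 (SE 0.40). Trim25, which binds RNA, was at 3.25 and 0.924 against 0.684, 0.723, 0.574 and 1.07. Its PTGR replicate 2 lay below repressor replicate 2, so the groups overlapped. Rnf219, also a RING protein, had 11 and 4 insertions in PTGR and 0, 2, 0 and 1 in the others. Parp14, an ADP-ribosyltransferase, was at 2.74 and 4.07 against 0.855, 0.723, 1.03 and 0.735, with a log2 difference of 1.83 (SE 0.31, edgeR adjusted p = 0.00016).

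The remaining higher genes were Icmt and Cds1, which encode membrane enzymes of prenyl-protein methylation and phospholipid synthesis, Maco1, an endoplasmic reticulum protein, Brat1, the imprinted gene Peg3, and Utrn, a relative of dystrophin. Icmt had 15 and 4 insertions in PTGR and 0, 0, 2 and 1 in the others, a log2 difference of 3.74 (SE 0.78). Maco1 was at 1.67 and 1.85 against 0.342, 0.289, 0.230 and 0.339, with clear separation and a log2 difference of 2.42 (SE 0.43). Utrn had the smallest shift, 3.38 and 6.29 against 1.75 to 2.29, or 1.08 on the log2 scale.

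Apart from Slc35g1, a solute carrier, none of the 10 lower genes belonged to any gene list examined. Lrp5, a Wnt co-receptor, was at 1.67 and 0.740 in PTGR and at 4.90, 4.67, 4.07 and 4.63 in the others, so that the 4 DNA-tethering libraries were close to each other and all above PTGR. Its log2 difference was -1.73 (SE 0.27, edgeR adjusted p = 2.5e-05). Stfa3, a cysteine protease inhibitor, was at 0.684 and 0.370 against 2.79, 2.94, 2.35 and 1.64, a log2 difference of -2.04 (SE 0.37, edgeR adjusted p = 0.0004). Calcoco2, an autophagy receptor, was at 1.45 and 2.40 against 3.42 to 5.20, without overlap. Acadl had 0 and 0 insertions in PTGR and 6, 7, 12 and 5 in the others, at least 3.92-fold lower taking 3 counts over the PTGR pair as the floor. The others were Ccdc112, the sterol regulator Insig2, the chaperonin subunit Cct8, the haem-binding repressor Bach1, the nuclease Mre11a and the transporter Slc35g1, with log2 differences from -2.68 to -1.02. Cct8 and Bach1 are neighbours on chromosome 16, so they are not independent of each other.

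**Figure D4:**
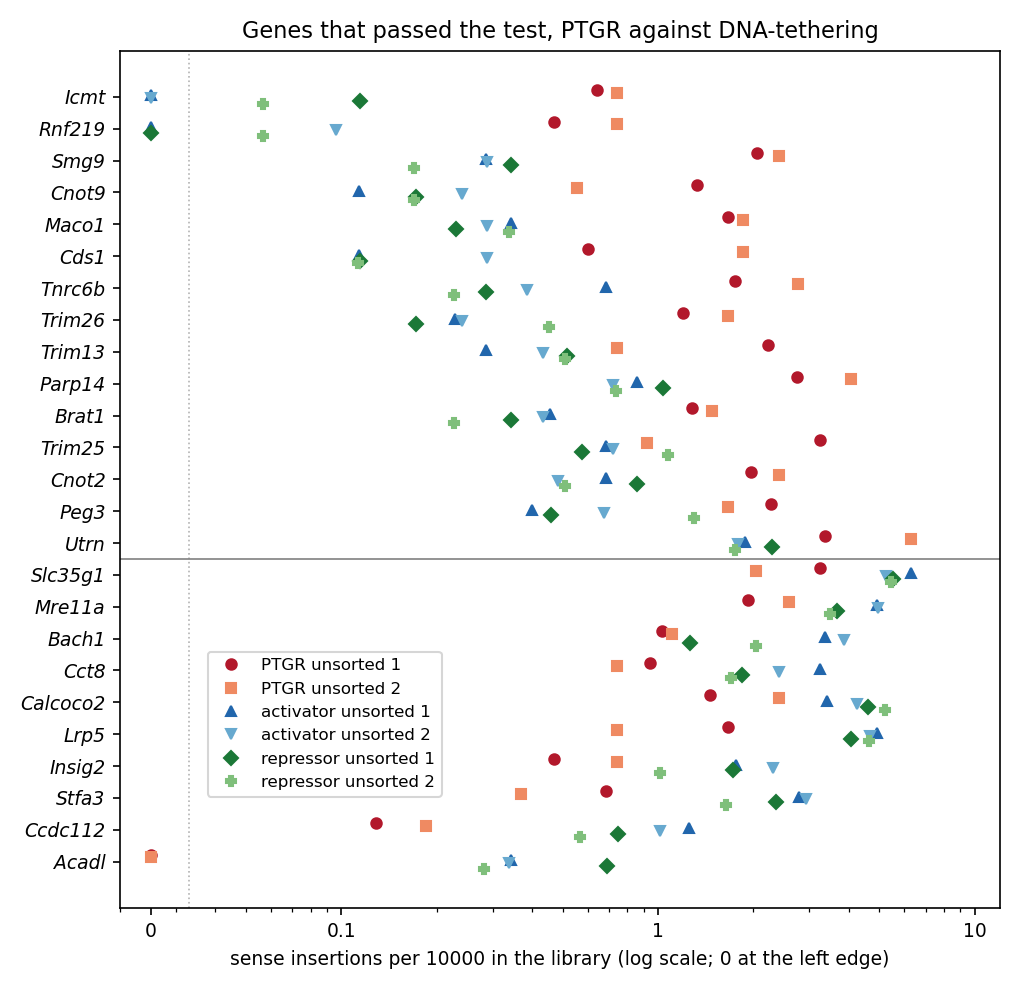
Sense insertions per 10000 counted insertions (horizontal axis, log scale with 0 at the left edge) for the 15 genes higher and the 10 genes lower in PTGR than in DNA-tethering libraries, 1 point per unsorted library. Apart from Trim25, whose PTGR replicate 2 (0.924) falls below repressor replicate 2 (1.07), the 2 PTGR points stand on 1 side of the other 4, and Acadl has both PTGR points at 0.

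The sorted PTGR libraries were made from cells of the same screen after repeated sorts for low GFP, and many of the higher genes were rich in insertions there. This comparison was added after the values were seen. In 10 of the 15 higher genes both sorted PTGR libraries exceeded all 6 unsorted levels, as they did in 0 of the 10 lower genes and in 556 of 12033 tested genes (4.62%). Of the 790 unsorted PTGR positions counted for the higher genes, 300 (38.0%, 95% Wilson interval 34.7 to 41.4) were listed at the same base in a sorted PTGR library, against 7.90% (5.45 to 11.3) at the lower genes and 5.99% (5.90 to 6.08) over all tested genes. The share differed by gene. In replicates 1 and 2 it was 76.9% and 100% at Maco1, 45.8% and 76.9% at Smg9, and 41.5% and 80.0% at Tnrc6b, while it was 0% in both at Icmt and at Cds1. Without the positions listed in the sorted libraries of the same screen, 2 genes, Icmt and Cds1, remained higher, and 8 of the 10 lower genes remained lower. Several lost calls had nearly the same fold as before, with log2 differences of -5.83 at Acadl (edgeR adjusted p = 0.065), -1.36 at Cct8 (0.066), 1.77 at Brat1 (0.065), 1.44 at Peg3 (0.066) and 1.00 at Utrn (0.073). All 10 lower genes stayed below 0. The median log2 difference of the 15 was then 1.32, with 14 above 0, and Maco1 was at -0.0070. Leaving out shared positions by its construction takes more from genes in which the sorted lists are rich. The part that shared positions play in the difference between tags was not tested beyond this count.

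Insertions pointing away from a gene show the local density without the tag pointing at the gene. At the higher genes, sense insertions, by which these genes were called, numbered 790 in PTGR and 537 in the DNA-tethering libraries. Reversed insertions there numbered 329 and 595. The pools differ in depth, and reversed insertions over all genes tested on them numbered 275788 and 710024. Relative to those totals, reversed insertions at the higher genes also leaned to PTGR, though less than sense insertions. Of the 14 tested on reversed insertions, 0 were called by the edgeR quasi-likelihood test, with 9 above and 5 below 0. The median log2 difference was 0.33. At an unadjusted p below 0.05 were 2 of them, Icmt (log2 1.71) and Peg3 (log2 1.33), both higher in PTGR. Of the lower genes, all 10 were below 0 on reversed insertions too, 3 of them past the threshold, with a median of -1.18. Reversed insertions at Acadl were 0 and 0 in PTGR and 9, 8, 6 and 8 in the others, the same pattern as its sense insertions.

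Fitted on reversed insertions alone, 7 of 11859 genes (0.0590%) were higher and 9 (0.0759%) lower in PTGR, 16 in all (0.135%), by the edgeR test, and 1018 (8.58%) had an unadjusted p below 0.05. The 7 higher were Hes3, Zfp94, Usp37, Nkx6-1, H2-M1, Rhd and Parp9. Because 1 insertion can point toward one gene and away from its neighbour, the sense gene of the same insertions was looked up. Each of the 7 had most of its PTGR insertions, between 70.5% and 100%, in the sense count of a gene called higher, namely Icmt, Smg9, Cnot9, Cds1, Trim26, Maco1 and Parp14 in that order. Among the 9 lower, 3 were themselves called lower on sense insertions, Lrp5, Bach1 and Acadl, and Ttll6, Amotl1, Kmt5b and Bach1 shared their insertions with Calcoco2, Mre11a, Lrp5 and Cct8. Epb41l4b, Zfp362 and Rusc2 had no partner among the called genes. Epb41l4b was at 36 and 10 reversed insertions in PTGR against 51, 89, 80 and 69 (log2 -1.33, edgeR adjusted p = 0.011).

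Whether the ratio of sense to reversed insertions differed between tags was tested as an interaction, and 1 of 14511 genes (0.00689%) passed. It was Trim13, with 52 and 4 sense and 9 and 1 reversed insertions in PTGR, against 5, 9, 9 and 9 sense and 8, 11, 14 and 16 reversed in the others. Sense exceeded reversed in both PTGR libraries and fell below it in all 4 others, a log2 difference of ratios of 3.06 (SE 0.60, edgeR adjusted p = 0.0042). The next 9 were H2-M5, Trim25, Parp14, Mboat1, Tfcp2l1, Smg1, Plcxd1, Msl1 and Sp3, with edgeR adjusted p from 0.068 to 0.40. Of the 14511 genes, 569 (3.92%) had an unadjusted p below 0.05. Trim13 passed without PTGR replicate 2 but not without any of the other 5 libraries in turn (log2 2.56 to 3.17, edgeR adjusted p from 0.10 to 0.88), nor without positions listed in sorted libraries of the same screen (log2 2.01).

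Taking the 6 libraries together, sense and reversed insertions differed at 203 of 14511 genes (1.40%), 123 higher in sense (0.848%) and 80 lower (0.551%), by the edgeR quasi-likelihood test with the library as a block, and 1493 (10.3%) had an unadjusted p below 0.05. In 56 of the 123 and 36 of the 80 the direction was the same in 6 of 6 libraries. The count was 131 without PTGR replicate 1, 117 without activator replicate 1 and 100 without activator replicate 2. Pgk1 stood first among the higher genes by its p, with 58, 46, 67, 85, 46 and 61 sense against 23, 4, 22, 24, 11 and 13 reversed insertions. The sense count was above the reversed count in each library, by 1.91 on the log2 scale (SE 0.16, edgeR adjusted p = 1.2e-27), and its promoter positions described above are part of this count. Setd1b, a histone methyltransferase, followed with 44, 12, 34, 74, 34 and 22 against 27, 6, 8, 8, 15 and 17, or 1.41. Of its activator sense insertions, 14 of 34 and 44 of 74 were also listed in the sorted activator libraries. The other higher genes with the largest ratios were Slc7a10, Bcl6b, Rabif, Saysd1, Meltf, Mta1, Myo18b and Sfta2.

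The genes with more reversed than sense insertions were largely the mirror of these. Of the 80, 62 had at least 50% of their reversed insertions in the sense count of a single neighbour, and for 45 of them that neighbour was itself called higher. Magt1, an X-linked gene beside Pgk1, had 361 of its 515 reversed insertions (70.1%) in Pgk1, and Rhof had 220 of 222 (99.1%) in Setd1b. Magt1 had 51, 10, 42, 44, 39 and 47 sense and 94, 58, 91, 122, 69 and 81 reversed insertions, lower in each library by 1.15 on the log2 scale. The remaining named genes were Tia1, Olfr1509, Zfp661, Lcmt1, Camk2a, Chchd7, Slc7a1 and Sugp1.

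**Figure D5:**
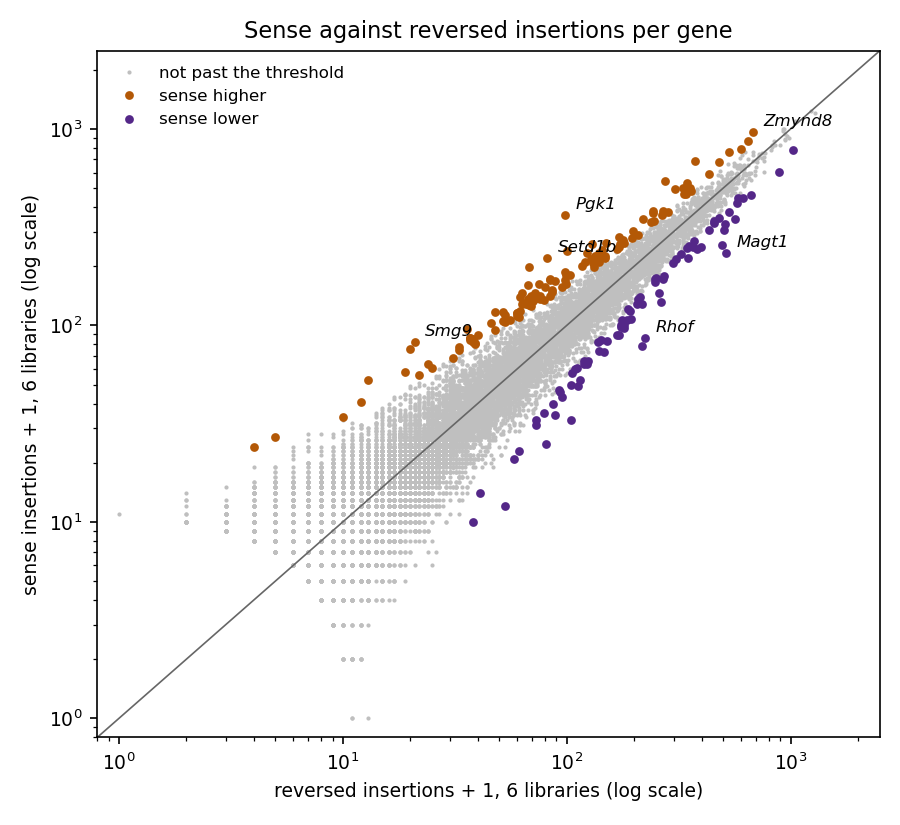
Sense insertions (vertical axis) against reversed insertions (horizontal axis) per gene, summed over the 6 unsorted libraries with 1 added, both on log scales, with the diagonal drawn. The 123 genes higher and the 80 lower in sense lie off the diagonal, and Pgk1 and Setd1b stand above it where Magt1 and Rhof, which count the same insertions in reverse, stand below.

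Density along the chromosomes was compared without regard to genes. None of 541 windows of 5 Mb passed (0%), by the edgeR quasi-likelihood test on positions of both strands, and 53 had an unadjusted p below 0.05. The window of lowest p lay at chrX:130000001-135000000, with a log2 difference of -0.49 (SE 0.11, edgeR adjusted p = 0.371). In windows of 100 kb, a size chosen after seeing the data, 12 of 12635 (0.095%) passed, 3 higher and 9 lower in PTGR. The first, at chr4:57100001-57200000, held 31 and 12 positions in PTGR and 77, 100, 100 and 96 in the others, with Epb41l4b as the only gene assigned. Others lay at the called genes Smg9, Lrp5, Stfa3, Insig2, Bach1, Cnot2 and Calcoco2. The window at chr7:6700001-6800000, at Peg3 and Usp29, held 109 and 16 against 15, 21, 25 and 39. A window with no assigned gene, chr10:119100001-119200000, held 0 and 0 positions in PTGR and 7, 14, 11 and 7 in the others.

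The activator and repressor libraries share the tag and differ in the reporter line, and possibly in the laboratory. They show how far unsorted libraries part without a change of cassette. The same edgeR test called 60 genes higher in activator (0.499%) and 53 higher in repressor (0.440%), 113 of 12033 (0.939%). It was made with the 3 screens as groups, and PTGR against the 4 gave 93 calls in that form, against 25 in the 2-group form. The common dispersion, which measures the spread within groups, was 0.0084 with 3 groups and 0.026 with 2. The count of 113 fell to 5 without activator replicate 1, 12 without activator replicate 2, 5 without repressor replicate 1, 7 without repressor replicate 2 and 63 without PTGR replicate 1. The 2 comparisons share the activator and repressor libraries, and their groups differ in size. The genes named here were chosen after their values were seen. Zfp825, a zinc finger gene, had 93 and 80 insertions in repressor, 20 and 12 in activator and 26 and 6 in PTGR libraries, a log2 difference of -2.53 between activator and repressor (SE 0.28, edgeR adjusted p = 2.9e-15). Trim28, the corepressor recruited by KRAB zinc finger proteins, had 199 and 169 in repressor against 65 and 84 in activator and 129 and 30 in PTGR, a log2 difference of -1.42, and Zfp57, a KRAB zinc finger protein that acts through it, had 220 and 200 against 90 and 91, or -1.32. Activator libraries were higher at Ankrd55, with 23 and 23 insertions against 2 and 3 (log2 3.03), and at Ptrh2, with 32 and 40 against 7 and 7 (log2 2.23). On chromosome 8 the median log2 difference over 593 tested genes was -0.39, with 0 genes higher in activator and 10 lower. Of its 26 windows of 5 Mb, 15 passed, all higher in repressor, out of 69 passing windows in the genome (12.8% of 541), and 285 of 12635 windows of 100 kb (2.26%) passed.

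The overlap with sorted lists recurred in the repressor screen. Both sorted repressor libraries exceeded all unsorted levels in 22 of the 53 genes higher in repressor (41.5%), against 4.01% of all tested genes, and 27.8% (95% Wilson interval 26.6 to 29.0) of the repressor positions in those genes were listed in the sorted libraries, against 1.52% overall. In the activator screen it was 6 of 60 genes (10.0% against 4.05%) and 6.88% (6.25 to 7.58) of positions against 1.11%.

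Across genes, the log2 levels of 2 libraries correlated with a Pearson r of 0.87 between the activator and 0.86 between the repressor replicates. It was 0.73 between the PTGR replicates, and from 0.70 to 0.84 between libraries of different screens, the lowest with the shallow PTGR replicate 2. Genes are not independent replicates, and depth limits these values.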

How the data were processed

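The members and the gene lists were chosen with earlier results of these data known. The deposited insertion lists give genomic positions, assigned exons and distances in bp as the authors wrote them, which are neither counts nor normalized values, and the authors' other comparison tables (fold changes and p-values of sorted against unsorted libraries) were not used. Per the submitters' notes and methods, the authors trimmed reads with Trim Galore 0.6.0, aligned first mates to mm10 with Bowtie2, removed duplicates and reads with a mapping quality of 30 or less with SAMtools 1.9, and gave an insertion to the closest exon downstream within 200 kb, using protein-coding transcripts of GENCODE vM25 and skipping their first exons. Removing duplicates leaves distinct positions, so read depth per insertion is unknown. The repressor lists repeated every position, and each was counted once.

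Counts per gene and library were made here from unique positions. Summed over the 6 libraries they gave 1022126 insertions, against 1022090 in the authors' pooled background counts, and were equal for 20224 of 20409 genes. GENCODE vM21, on the same assembly, gave start sites, catchments and gene locations, and assigned 99.4% of 986541 positions in range to the same gene. Genes with at least 10 insertions were tested with edgeR 4.0.16 (quasi-likelihood, TMM, R 4.3.3), with Benjamini-Hochberg adjustment at 0.05. An SE printed with an edgeR log2 difference was derived from the test, as the absolute difference divided by the square root of its F statistic. Sense against reversed insertions and the interaction with the tag were fitted on 12 columns with the library as a block. Whole-library measures used two-sided exact permutation tests over the 15 splits. Named genes were the 15 most tagged, the 10 higher and 10 lower with the largest change among called genes (for PTGR without overlap of levels, for strand the same way in 6 of 6 libraries), the 10 genes and 5 windows of smallest p, and the 10 never tagged genes of largest catchment. Other called genes and those between activator and repressor were named after their values were seen. The scripts were tested on simulated data. Alternatives covered DESeq2 1.42.0, scaling without TMM, the 3 screens fitted as groups, other count minimums, a distance of 50 kb, counting every listed row, a replicate block and leaving out each library. Those without positions in sorted lists, the 100 kb windows and leaving libraries out of whole-library measures were chosen after seeing the data.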

Additional observations from a re-analysis of the deposited data

Results flagged for a closer look

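Among the 4 DNA-tethering libraries, 6 of 93 groups of values tested had 1 library far from the others (a gap above Dixon's 95% critical value, which chance gives in about 1 in 20 groups). The chromosome 4 share was 6.72% in repressor replicate 1, and the chromosome 14 share 3.85% in activator replicate 1. Per 10000 insertions, Cds1 was at 0.289 in activator replicate 2, Acadl at 0.689 in repressor replicate 1, Rabif at 1.71 in activator replicate 1 and Mta1 at 1.58 in repressor replicate 2.

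At Trim13 the ratio of sense to reversed insertions differed between PTGR and DNA-tethering libraries, with a log2 difference of ratios of 3.06 (edgeR quasi-likelihood interaction test, adjusted p = 0.0042), sense being above reversed in both PTGR libraries and below it in the other 4.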

How the results depend on the processing

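Between PTGR and DNA-tethering libraries, the 25 called genes became 20 without TMM factors (16 higher, 4 lower), 5 with DESeq2 (4 higher, 1 lower), 12 among genes with at least 30 insertions, 16 at a maximum distance of 50 kb, 11 when every listed row was counted, 93 with the 3 screens fitted as groups, 8 against the activator libraries only, 21 against the repressor libraries only (5 higher, 16 lower, 7 of them among the 25) and 257 by Fisher's exact test on summed libraries, which ignores the spread between them. They became 11 (2 higher, 9 lower) without positions in sorted libraries of the same screen and 11 without positions in any sorted library. Leaving out 1 library gave 0 to 23, the 0 without PTGR replicate 1 (edgeR, 830 at an unadjusted p below 0.05). At 50 kb, Cct8 turned to a log2 difference of 0.14 and Mre11a to 0.53, and Maco1 turned to -0.0070 without positions in sorted libraries of the same screen. For the named genes, leaving out a library kept the call in 61 of 148 cases and lost it in 87, and the other alternatives kept 235 of 371, lost 133 and reversed 3. Between activator and repressor, the 113 became 8 with DESeq2 (of 2702 genes with an adjusted p), 68 with at least 1 insertion, 40 at 50 kb, 74 from positions in 1 library only, 57 and 60 without positions in sorted libraries of the same screen or of any, and 5 to 97 with 1 library left out. For sense against reversed, the 203 became 116 at 50 kb, 114 from positions in 1 library only, 10 with DESeq2 and 100 to 236 with 1 library left out. That count was 150 without positions in sorted libraries of the same screen and 143 without those of any. The interaction with the tag gave 2 genes among those with at least 30 insertions, 0 without positions in sorted libraries of the same screen, 0 without those of any, 0 with DESeq2 (72 at an unadjusted p below 0.05) and 0 to 1 with 1 library left out. The 5 Mb windows gave 0 under each other alternative, and windows of 100 kb gave 12. Of the whole-library differences, that of genes tagged at equal depth ran from 144 to 297 with 1 library left out, that of the exon 2 share turned from -0.013 to 0.281 percentage points at 50 kb and ran from -0.583 to 0.557 with 1 library left out, and that of the sense share ran from -0.0619 to 0.197.

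Replicates with the same number did not deviate together (r = 0.0032, -0.018 and 0.019 across genes). This gave no sign of pairing by number at the level of genes, but it cannot exclude that such libraries were handled together. With the replicate number as a block, the PTGR comparison gave 25 calls (15 higher, 10 lower), 23 of them among the original 25, with Bach1 and Brat1 lost, and the windows 0, and activator against repressor gave 71 (38 higher, 33 lower). PTGR replicate 2, with 54088 insertions, and the number of PTGR libraries, 2, limit the precision.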
